A study of Mus musculus with 8 samples.

Results

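The genes that make, store, take up and break down catecholamines were followed through 8 mouse tumours. These are 10 genes of 22180 with a value, each read from the probe set with the highest mean among those annotated to that symbol alone, and each of the 10 had 1 such probe set. In pathway order they are Gch1, Th, Ddc, Dbh, Cyb561, Pnmt, Slc18a1, Slc18a2, Slc6a2 and Maoa. The tumours grew under the skin of nude or C57Bl/6 mice from cultured mouse neural crest cells, the embryonic cells that give rise to sympathetic neurons and adrenal chromaffin cells. All 8 carried the same label and form 1 group (n = 8). The cells had been transduced with N-Myc and were a mixture of p53+/- and p53-/- cells. About 10000 of them were injected 48 hours after infection, and the tumours were removed after about 50 days. The labels do not say which host a tumour grew in, which share of its cells was p53-/-, or whether every tumour came from its own animal, and no normal tissue or untransduced culture was analysed here. The tests below compare levels with the array background, or set genes and marker means against each other over the samples. Their p-values therefore rest on the spread between these samples, which may be partly technical, and do not test that spread.

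Catecholamines are made from the amino acid tyrosine. Tyrosine hydroxylase (Th) makes DOPA, aromatic L-amino acid decarboxylase (Ddc) makes dopamine, dopamine beta-hydroxylase (Dbh) makes noradrenaline inside the secretory vesicle, and phenylethanolamine N-methyltransferase (Pnmt) makes adrenaline in a subset of chromaffin cells. GTP cyclohydrolase (Gch1) starts the synthesis of tetrahydrobiopterin, the cofactor of tyrosine hydroxylase, and cytochrome b561 (Cyb561) passes electrons across the vesicle membrane to keep ascorbate reduced for dopamine beta-hydroxylase. The vesicular monoamine transporters Slc18a1 (VMAT1) and Slc18a2 (VMAT2) load the vesicle, the noradrenaline transporter Slc6a2 takes up released transmitter, and monoamine oxidase A (Maoa) breaks it down. Neuroblastoma arises from the sympathoadrenal lineage, and catecholamine breakdown products in urine are used in its diagnosis.

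Promoter sequences are shown for the 3 enzymes of noradrenaline synthesis and for Slc18a2, because Dbh and Ddc had the largest SDs of the 10 genes over the tumours, Th varied with Ddc, and Slc18a2 stayed level where they were lowest. The RefSeq promoter table (build GRCm38.p6) held 6 of the 10 genes, with 2 start sites for Ddc, and the array values do not separate these starts. Each line gives the 250 bases before the start, 5' to 3' on the strand of the gene. Capitals mark ATTA on either strand, the core that homeodomain factors bind, and TGACGTCA, the cyclic AMP response element (CRE). For Dbh the window is chr2:27165257-27165506 on the plus strand, for Th chr7:142899996-142900245 on the minus strand, for the 2 Ddc starts chr11:11890409-11890658 and chr11:11898145-11898394 on the minus strand, and for Slc18a2 chr19:59260628-59260877 on the plus strand.
Dbh: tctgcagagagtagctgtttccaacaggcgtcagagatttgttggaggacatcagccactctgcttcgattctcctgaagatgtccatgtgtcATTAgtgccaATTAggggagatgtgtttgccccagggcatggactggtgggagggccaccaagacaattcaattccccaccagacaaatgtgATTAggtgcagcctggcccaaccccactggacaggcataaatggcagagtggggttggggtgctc
Th: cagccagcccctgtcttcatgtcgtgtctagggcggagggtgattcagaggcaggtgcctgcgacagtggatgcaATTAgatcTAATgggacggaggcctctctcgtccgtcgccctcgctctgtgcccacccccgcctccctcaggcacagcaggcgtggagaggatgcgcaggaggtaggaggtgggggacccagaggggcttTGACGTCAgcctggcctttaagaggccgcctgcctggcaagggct
Ddc, first window: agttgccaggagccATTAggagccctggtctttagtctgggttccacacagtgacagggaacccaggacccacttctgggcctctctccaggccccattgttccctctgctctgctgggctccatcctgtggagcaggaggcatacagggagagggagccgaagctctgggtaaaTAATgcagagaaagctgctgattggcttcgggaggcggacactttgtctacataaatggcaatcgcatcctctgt
Ddc, second window: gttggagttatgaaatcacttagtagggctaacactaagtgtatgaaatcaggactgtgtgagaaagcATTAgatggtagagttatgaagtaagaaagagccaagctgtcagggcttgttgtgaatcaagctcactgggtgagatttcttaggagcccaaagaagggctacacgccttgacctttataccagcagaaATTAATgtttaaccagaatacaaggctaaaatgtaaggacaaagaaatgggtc
Slc18a2: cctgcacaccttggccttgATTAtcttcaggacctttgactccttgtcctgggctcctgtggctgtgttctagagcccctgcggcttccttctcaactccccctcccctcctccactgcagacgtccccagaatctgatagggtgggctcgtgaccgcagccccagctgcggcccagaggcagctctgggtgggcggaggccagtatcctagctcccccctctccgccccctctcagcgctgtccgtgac

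The Dbh window holds 3 ATTA cores, which begin 157, 147 and 65 bases before the start, counted from 1 at the base next to it. Of all 32851 promoter windows in the table, 17.3% hold 3 or more and 54.9% hold at least 1. The Th window holds 2 ATTA cores and a CRE that begins 45 bases before the start, and 1.55% of all windows hold a CRE. Among the 6 genes the CRE was in Th alone, while TGACG, a shorter core contained in the full element, was also in Dbh, Gch1 and Maoa (17.8% of all windows). The Slc18a2 window holds 1 ATTA core, and it was the only one of the 6 genes with CAGCTG (13% of all windows) or AGATAA (9.99%). The AGATAA there overlaps its ATTA core. TGANTCA was found in Th and the second Ddc window (6.75% of all windows), and TATAAA in the second Ddc window and Gch1 (12.4%). The first Ddc window held neither. GGGCGG was in Th, Slc18a2, Gch1 and Maoa (32.7%). TAATTA (4.84%) and GCGGGGGCG (2.57%) were in none of these windows. Matches were sought on both strands, and they describe letters, not occupied sites.

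The first comparison asks which steps of the pathway the tumours expressed. Levels are log2 values per probe set, and a gene was called detected when its level exceeded the array background with an adjusted p under 0.05 in limma, a linear model fitted over all genes. The background was the 95th percentile of olfactory, vomeronasal and bitter taste receptor probe sets (5.45 to 5.66 over the arrays). Of the 10 genes 9 were detected, against 57.3% of all genes tested. The exception was Pnmt. Because probe sets differ in how brightly they report, levels are compared between tumours and with background, not between genes.

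Synthesis up to noradrenaline was detected in the tumours as a group. Th was lowest at 8.59, with a median of 10.01 and a highest value of 11.34, and lay above background in all 8 tumours. Its mean was 10.05 ± 0.91 (SD, n = 8), which is 4.46 above background on the log2 scale (95% confidence interval 3.84 to 5.08, limma, adjusted p = 8.02e-08). Ddc ran from 5.61 over a median of 8.36 to 10.34, with a mean of 8.31 ± 1.69 (SD, n = 8), 2.73 above background (limma, adjusted p = 0.000543). The lowest Ddc levels, in tumours 6 and 3 (5.61 and 6.43), stood below the 7.93 or more of the other 6 tumours. Dbh ran from 5.72 over a median of 10.64 to 11.43, with a mean of 10.15 ± 1.88 (SD, n = 8), 4.56 above background (limma, adjusted p = 2.92e-05). For Dbh, 7 tumours lay together between 9.87 and 11.43 and tumour 6 lay alone near background.

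The step to adrenaline was not detected. Pnmt ran from 4.72 over a median of 4.96 to 5.41 and was below background in all 8 tumours, by 0.53 on average (limma, adjusted p = 1.62e-05). The glucocorticoid receptor Nr3c1, through which adrenal steroids raise Pnmt in chromaffin cells, was detected at 7.44 ± 0.36 (SD, n = 8). Of 6 listed markers of adrenaline chromaffin cells, 5 were detected, against 57.3% of all genes tested. Pnmt was the only 1 of that list not detected.

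The genes of cofactor and electron supply were both detected. Gch1 ran from 5.50 over a median of 6.51 to 6.94, with a mean of 6.33 ± 0.55 (SD, n = 8), 0.75 above background (limma, adjusted p = 0.00136). It was above background in 7 of 8 tumours, and with the background set at the 99th percentile its mean was 0.26 below it. Cyb561 ran from 7.05 over a median of 7.94 to 8.64 and was above background in every tumour, by 2.30 on average (limma, adjusted p = 4.42e-08).

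Both vesicular transporter genes were detected. Slc18a2, the form of neurons and also of chromaffin cells, ran from 8.75 over a median of 9.46 to 10.41, with a mean of 9.58 ± 0.56 (SD, n = 8), which is above background by 3.63 to 4.37 (95% confidence interval, limma, adjusted p = 5.22e-10). Slc18a1, best known from chromaffin and other endocrine cells, ran from 5.14 over a median of 8.37 to 9.42, with a mean of 7.99 ± 1.35 (SD, n = 8), 2.41 above background (limma, adjusted p = 0.000272). Slc18a1 was below background in tumour 6 alone, whereas Slc18a2 lay at least 3 log2 units above it in every tumour.

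The uptake and breakdown genes were detected as well. Slc6a2 ran from 5.67 over a median of 5.97 to 7.04, 0.49 above background (limma, adjusted p = 0.00458), and it was 0.52 below background when that was set at the 99th percentile. Its values in tumours 6 and 7 were both 5.67, while tumour 8, at 7.04, stood apart from the next highest (6.28 in tumour 1). Maoa ran from 7.09 over a median of 9.13 to 10.47, with a mean of 8.98 ± 0.97 (SD, n = 8), 3.40 above background (limma, adjusted p = 1.59e-06), and its extremes were tumours 6 (low) and 8 (high).

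**Figure D1:**
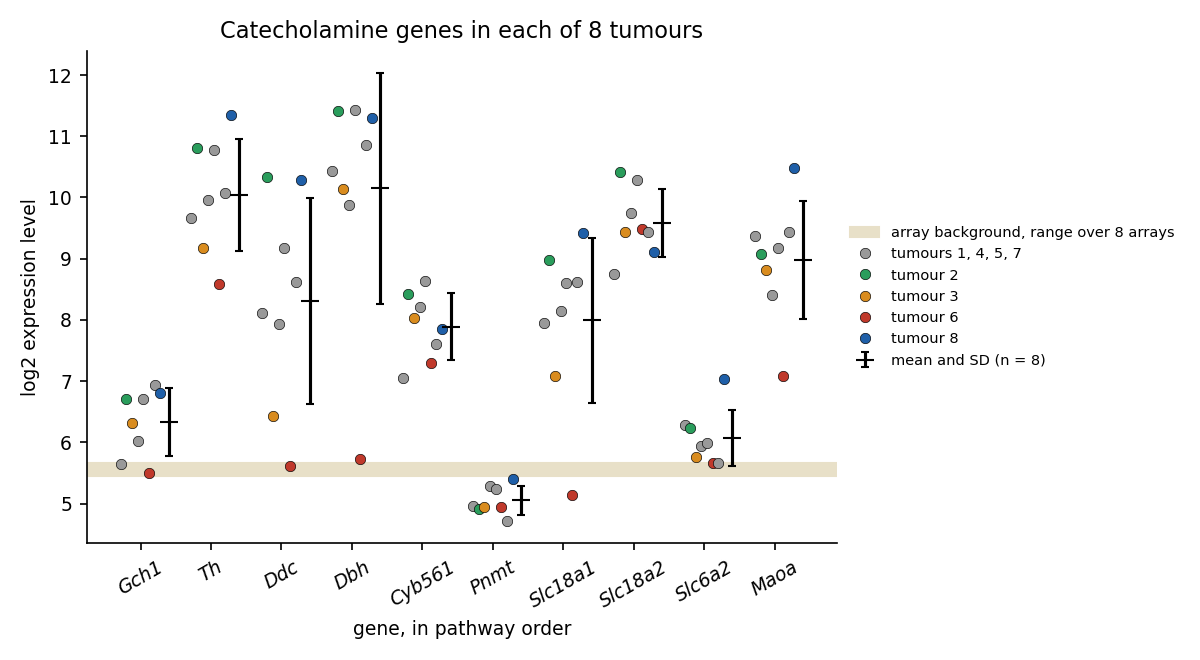
The log2 level of each of the 10 genes in each of the 8 tumours (points, placed from tumour 1 at the left to tumour 8 at the right), with the mean and SD beside them and the range of the array background as a band. Dbh, Ddc, Slc18a1, Gch1, Th and Maoa have their lowest point in tumour 6, and all Pnmt points lie below the band.

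The second comparison asks how the genes differed between the tumours. The SD over the tumours had a median of 0.91 for the 9 detected genes of the pathway and 0.23 for all 12715 detected genes. An SD of at least 0.5 was reached by 8 of the 9, against 9.38% of all detected genes, and an SD of at least 1 by 3 (Dbh, Ddc and Slc18a1), against 1.23%. Without tumour 6 an SD of at least 0.5 was reached by 7 of the 9, against 7.81% of all detected genes. There are no repeat arrays of a tumour, so no test separates the spread between tumours from that between arrays. The SD of receptor genes at background, 0.16 at the median, shows the spread of probe sets with little or no signal.

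From the lowest to the highest tumour, Dbh spanned 52.3-fold, Ddc 26.5-fold, Slc18a1 at least 14.7-fold, Maoa 10.4-fold and Th 6.74-fold. Slc18a2 spanned 3.16-fold, Cyb561 3.01-fold, Gch1 at least 2.64-fold and Slc6a2 2.59-fold. The spans of Slc18a1 and Gch1 are lower bounds, taken against the background where tumour 6 was below it, and the lowest Dbh and Ddc values lay only just above it, where folds are imprecise. Without tumour 6 the Dbh span was 2.95-fold, that of Slc18a1 5.02-fold, that of Maoa 4.19-fold and that of Th 4.51-fold, while Ddc still spanned 15-fold. The wide span of Dbh thus lay in 1 tumour, and that of Ddc in several.

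Tumour 6 had the lowest level of 6 of the 9 detected genes, namely Th, Ddc, Dbh, Slc18a1, Gch1 and Maoa. Slc6a2, tied there with tumour 7, is not counted. Over all detected genes 16.0% were lowest there. Compared with the mean of the other 7 tumours, Dbh was 5.05 log2 units lower (33.2-fold, at 5.72 against 10.78 ± 0.64, SD, n = 7), Slc18a1 at least 2.87 lower (at least 7.29-fold), Ddc 3.09 lower (8.52-fold), Maoa 2.16 lower (4.47-fold) and Th 1.67 lower (3.18-fold). The Slc18a1 value is a bound because its level in tumour 6, 5.14, was under the background of that array (5.54), which takes its place here. These 5 genes were at least 1 log2 unit lower, as were 2.15% of all detected genes. Dbh there lay 4.15 below the next lowest tumour, Maoa 1.32 below, Ddc 0.82 below and Th 0.58 below. Gch1 lay only 0.16 below the next lowest and, at 5.50, under the background of that array, so its rank rests on values near background. The same tumour kept Slc18a2 at 9.49, close to the 9.60 ± 0.60 (SD, n = 7) of the others, and Cyb561 at 7.30, above the 7.05 of tumour 1. Th itself, at 8.59, was still 3.05 above background in tumour 6, while Dbh and Ddc were 0.19 and 0.07 above it. Of the 9 detected genes, Dbh was the 1 whose lowest tumour stood apart from the rest by Dixon's criterion for 8 samples (2.93% of all detected genes, and 1.12% with tumour 6 as that lowest tumour), and Slc6a2, in tumour 8, the 1 whose highest did (4.03%). Since tumour 6 is 1 sample, the contrast has no replicate and no test.

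At the other end, of the 9 detected genes, 9 lay above their own mean in tumour 2, 8 in tumour 5, 7 in tumour 8, 6 in tumour 7, 3 each in tumours 1 and 4, 1 in tumour 3 and 0 in tumour 6. Over all detected genes this share lay between 42.5% (tumour 7) and 57.4% (tumour 3). Tumour 8 had the highest Th (11.34), Slc18a1 (9.42), Slc6a2 (7.04) and Maoa (10.47). Tumour 2 was highest for Ddc (10.34) and Slc18a2 (10.41), and tumour 5 for Dbh (11.43) and Cyb561 (8.64). Over all detected genes 16.0% were highest in tumour 8, 6.9% in tumour 2 and 14.2% in tumour 5.

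**Figure D2:**
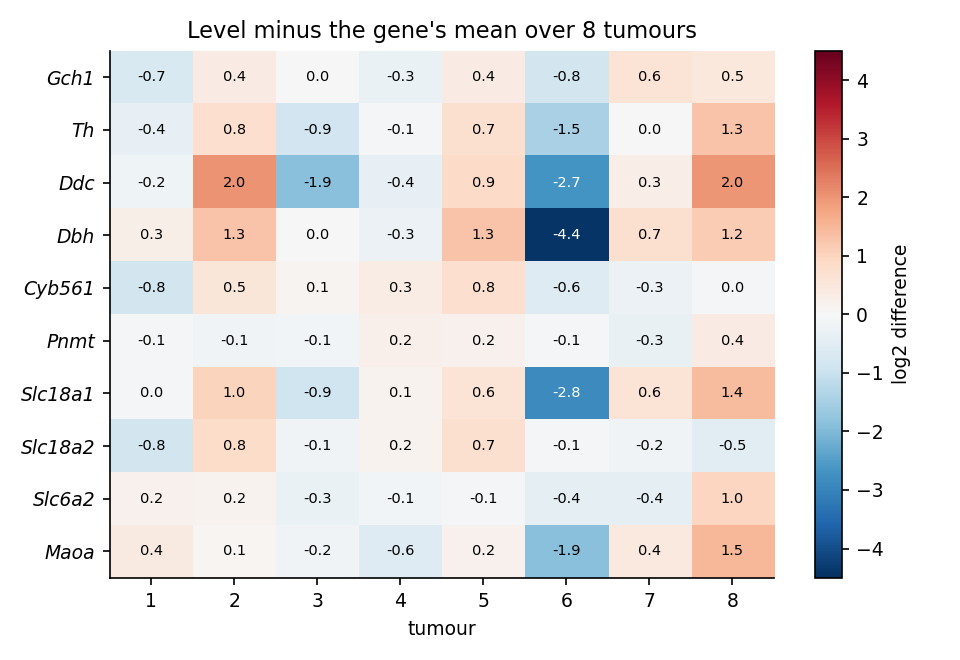
Each gene's log2 level in each tumour minus its mean over the 8 tumours, with genes in rows and tumours in columns (blue lower, red higher). The column of tumour 6 is blue for Dbh, Slc18a1, Ddc, Maoa and Th above all, Slc18a2 and Pnmt lie near 0 there, and tumours 2, 5 and 8 are mostly red.

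The third comparison asks whether successive steps differed between the tumours together. Of 22 listed pairs 19 were computed, and the other 3 involve transcription factors not analysed here. The pairs were chosen with earlier results of these data known, so the p-values describe these tumours and are not independent support. Pearson's r was set against all 40320 ways of pairing the values (an exact permutation test, two-sided), p-values were adjusted over the 19 pairs with the Benjamini-Hochberg method, and 5 passed an adjusted p of 0.05 (8 had an unadjusted p under 0.05). By Spearman's rho 2 passed. Without tumour 6, which leaves 7 values and 5040 pairings, 0 passed by either measure (4 had an unadjusted p under 0.05 by r and 2 by rho), so that each of the 5 calls needs this tumour.

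Th and Ddc, the first and second steps, followed each other most closely (r = 0.97, exact permutation p = 0.000174, adjusted p = 0.0033; rho = 0.95, exact permutation p = 0.00114, adjusted p = 0.0217; n = 8). This did not depend on the extremes in size: r was 0.94 without tumours 6 and 8, and 0.95 without tumour 6 (n = 7, exact permutation p = 0.00298, adjusted p = 0.0565). Th with Dbh (r = 0.81, exact permutation adjusted p = 0.00958, rho = 0.83) and Ddc with Dbh (r = 0.82, exact permutation adjusted p = 0.00958, rho = 0.90) also passed, and their r without tumour 6 was 0.84 and 0.85 (exact permutation adjusted p = 0.153 for both). With the 2 most extreme tumours of the first gene left out, r was 0.84 for Th with Dbh and 0.81 for Ddc with Dbh. Gch1 with Th missed the threshold (r = 0.77, exact permutation adjusted p = 0.0706, rho = 0.79).

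The vesicular transporters were also set against Dbh. Slc18a1 followed Dbh (r = 0.94, exact permutation adjusted p = 0.0111; rho = 0.76, adjusted p = 0.14), and r was 0.78 without tumour 6 (exact permutation adjusted p = 0.153) and 0.77 without tumours 3 and 6. For Slc18a2 with Dbh r was 0.20 (exact permutation adjusted p = 0.663, rho = 0.24), and -0.33 without tumours 2 and 5. Slc18a1 with Slc18a2 had r = 0.18 (exact permutation adjusted p = 0.677, rho = 0.07). With 8 tumours a pair that misses the threshold is not shown to be unrelated, and the difference between these correlations was not tested. Tumour 8 had the highest Slc18a1 (9.42) and the second lowest Slc18a2 (9.12), and tumour 6 the lowest Slc18a1 (5.14) with Slc18a2 at 9.49, while tumour 1 had the lowest Slc18a2 (8.75) with Slc18a1 at 7.96, close to its mean.

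**Figure D3:**
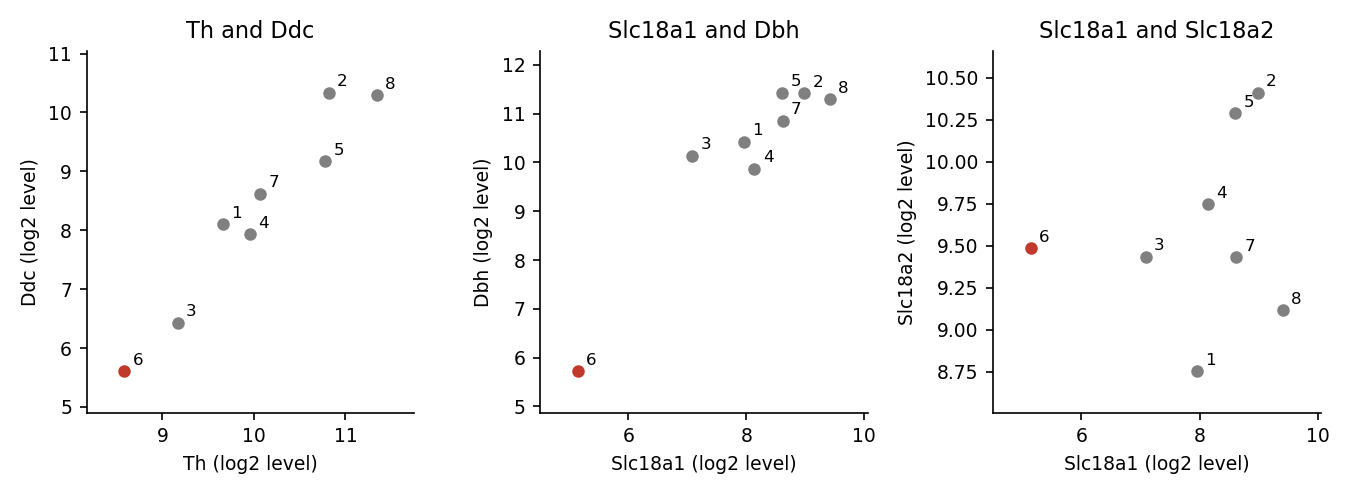
Log2 levels of 3 gene pairs, 1 point per tumour with its number. Th and Ddc lie near a line through all 8 tumours, Slc18a1 and Dbh have tumour 6 far from the rest, and Slc18a1 and Slc18a2 show no common order.

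Maoa with Dbh passed (r = 0.87, exact permutation adjusted p = 0.0304; rho = 0.64, adjusted p = 0.261) but had r = 0.61 without tumour 6 (exact permutation adjusted p = 0.396) and 0.60 without tumours 6 and 8, and its call was also lost without tumour 3, 4 or 7 (r = 0.87, 0.88 and 0.86, exact permutation adjusted p = 0.0572, 0.126 and 0.0539). Cyb561 with Dbh (r = 0.51), Slc6a2 with Dbh (r = 0.47) and Slc6a2 with Maoa (r = 0.72) missed it (exact permutation adjusted p = 0.281, 0.25 and 0.145). For Slc6a2 with Maoa, r was 0.36 without tumours 1 and 8.

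Of the transcription factors of sympathetic development, Gata3 with Dbh had r = 0.95 (rho = 0.52) and Hand2 with Dbh r = 0.77 (rho = 0.52), neither past the threshold (exact permutation adjusted p = 0.0606 and 0.0684). Without tumours 4 and 6, r was -0.09 for Gata3 and -0.18 for Hand2, and with tumour 6 alone left out it was 0.46 and 0.40. Without tumour 4 alone it was 0.95 and 0.83, so both relations rest mainly on tumour 6. The Gata3 pair passed without tumour 1 (exact permutation adjusted p = 0.0355) or tumour 8 (0.0332), and the Hand2 pair passed without tumour 1 (0.0355). Gata3 was at 6.93 in tumour 6 and between 9.01 and 9.83 in the others, and Hand2 at 9.94 against 10.20 to 11.02. Gata3 with Th had r = 0.61 (exact permutation adjusted p = 0.184, rho = 0.24), which was -0.06 without tumour 6.

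Around the 10 genes, 40 of 46 measured pathway genes were detected, against 57.3% of all genes tested, by list as follows. All 6 measured genes of cofactor synthesis and recycling were detected, and Pcbd1 varied most among them (9.31 ± 0.80, SD, n = 8), followed by Pts (7.29 ± 0.38), a tetrahydrobiopterin synthesis enzyme. Pcbd1, the carbinolamine dehydratase that recycles tetrahydrobiopterin after each turnover of an aromatic amino acid hydroxylase, ran from 7.85 in tumour 6 to 10.40 in tumour 8. Of the other breakdown enzymes 5 of 6 were detected. Maob, the other monoamine oxidase, averaged 7.78 ± 1.19 (SD, n = 8) and spanned at least 12.3-fold, with 9.16 in tumour 8 and 5.30, below background, in tumour 6. Rnls (6.37 ± 0.84) was at 5.39 in tumour 6 and at 8.08 in tumour 4, its extremes, and Sult1a1, a sulfotransferase, was not detected (5.58 ± 0.16).

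Among other uptake transporters, 1 of 3 was detected. Slc29a4, a low-affinity monoamine transporter (PMAT), ran from 9.61 to 10.39 (SD 0.25, n = 8), while the dopamine transporter Slc6a3 (5.46 ± 0.21) and the organic cation transporter Slc22a2 (4.64 ± 0.09) were not detected. All 10 measured genes of vesicle acidification and copper supply were detected, with Atp7a (8.44 ± 0.33), a copper pump, and Atp6v0a1 (9.79 ± 0.28), a proton pump subunit, varying most. All 4 measured genes of tyrosine supply were detected, with Slc7a5 (11.49 ± 0.32) and Slc7a8 (8.55 ± 0.29), both amino acid transporters, varying most.

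Outside the 10 genes, 18 of the 40 detected pathway genes had their lowest level in tumour 6, against 16.0% of all detected genes, and 7 were at least 1 log2 unit below the mean of the other tumours, against 2.15%. By list, that much lower were 1 of 6 detected cofactor genes (Pcbd1, by 1.68), 2 of 5 breakdown enzymes (Maob and Rnls), 0 of 10 vesicle acidification and copper genes, 0 of 4 tyrosine supply genes and 0 of 4 receptors. Maob and Rnls were below the background of that array, so the difference was at least 2.60 for Maob and at least 0.97 for Rnls when the background takes the place of the value, and Rnls is thus counted by its measured level alone. The vesicle and copper genes differed from the mean of the other tumours by -0.61 to 0.13, and 6 of the 10 were lowest in tumour 6, among them Slc31a1, a copper importer (9.42 against 10.02 ± 0.12, SD, n = 7), and the proton pump subunit Atp6v1b2 (11.04 against 11.55 ± 0.15). Of 10 detected transcription factors 4 were at least 1 log2 unit lower, namely Tfap2b (4.88 in tumour 6), Gata2 (5.45), Gata3 (6.93) and Isl1 (10.36), and Nr4a1, an immediate early nuclear receptor, was 1.48 higher.

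**Figure D4:**
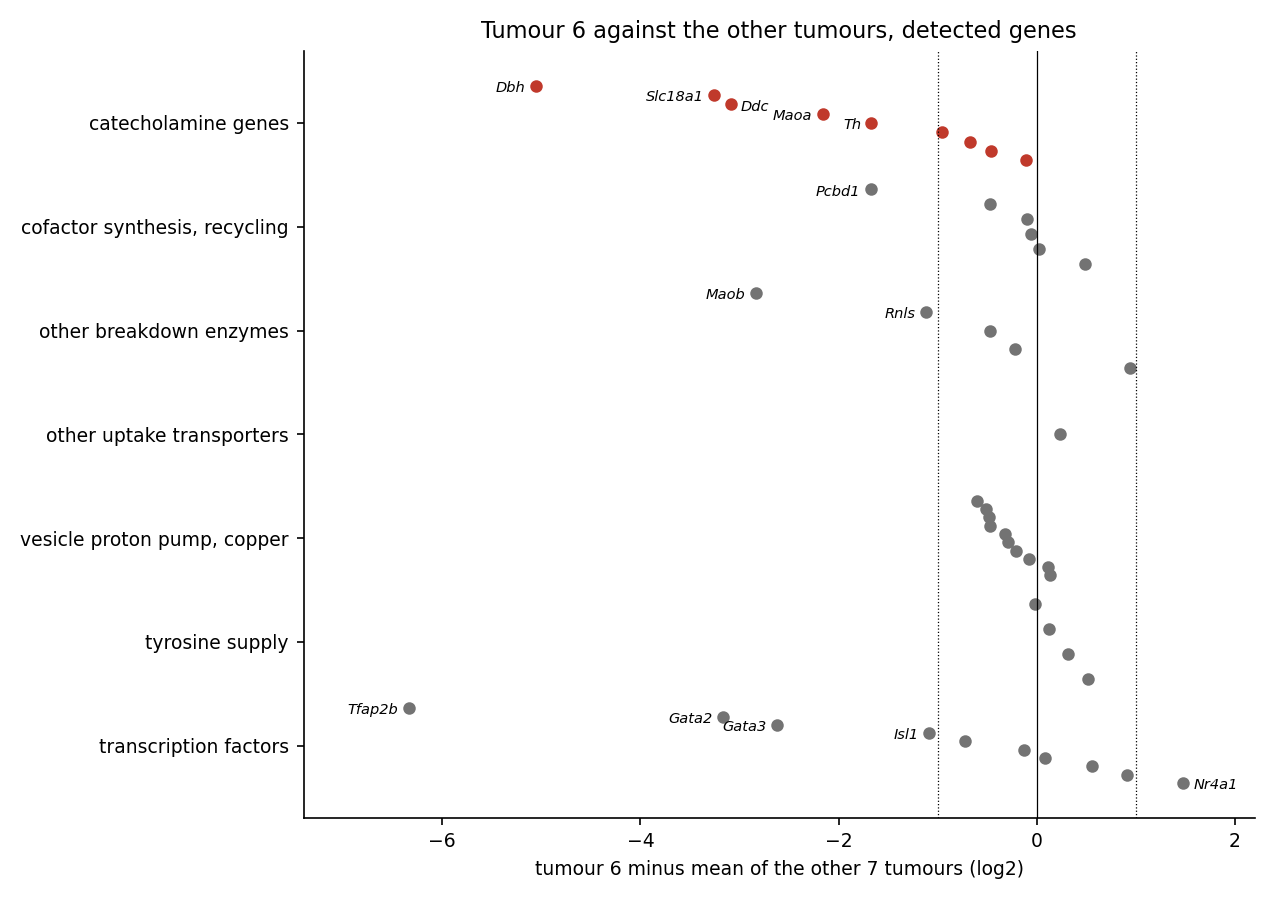
The level in tumour 6 minus the mean of the other 7 tumours for each detected gene of 7 lists, in log2 units, with dotted lines at -1 and 1 and names for genes beyond them. Dbh, Slc18a1, Ddc, Maoa and Th, with Pcbd1, Maob, Rnls and 4 transcription factors, lie beyond -1, while vesicle pump, copper and tyrosine supply genes lie between -0.61 and 0.52. Slc18a1, Gch1, Maob, Rnls, Gata2 and Tfap2b were below background in tumour 6 and are drawn at their measured values, so their true differences may be larger or smaller. With the background in place of the value, Rnls was 0.97 lower, inside the dotted line.

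Other cell types were read from marker lists, and the counts of detected markers stand beside 57.3% detected among all genes tested. The levels are of whole tumours, in which fewer cells of a type and less RNA per cell cannot be told apart. All 6 measured sympathetic neuroblast markers were detected, and their summed log2 level ran from 59.5 to 66.3, lowest in tumour 6, with 5 of the 6 lowest there. Of the Schwann cell precursor and glia markers 4 of 5 were detected (summed level 28.9 to 44.2), and relative to their means they stood 1.81 higher in tumour 6 and 2.36 higher in tumour 4. In each list the summed level covers all measured markers, and the difference from the means covers only the detected ones. Of skeletal muscle markers 4 of 6 were detected (summed level 34.7 to 53.3). Relative to their means they stood 1.70 higher in tumour 6, 0.94 in tumour 3, 0.79 in tumour 8 and 0.28 in tumour 2. The part of these cells in the low values of tumour 6 was not tested. Over the tumours the glial marker mean had r = -0.64 with Dbh (exact permutation adjusted p = 0.174, rho = -0.36) and r = 0.57 without tumours 4 and 6, and r = -0.33 with Th (exact permutation adjusted p = 0.516, rho = 0.05), which was 0.72 without those tumours.

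Maoa is made in many tissues, so it was also set against host cell markers. Its r was -0.58 with 7 detected of 8 macrophage markers (exact permutation adjusted p = 0.204, rho = -0.67), -0.19 with 6 of 7 fibroblast markers (adjusted p = 0.677, rho = 0.12) and -0.34 with skeletal muscle markers (adjusted p = 0.516, rho = -0.24), none past the threshold. With the 2 most extreme tumours of each marker mean left out, r was -0.46, -0.48 and 0.69. Of dopaminergic neuron markers 3 of 6 were detected, near the 57.3% of all genes tested, and each of these 3 was above background in all 8 tumours. The other 3, Pitx3 (5.57 ± 0.14), En1 (5.52 ± 0.19) and Slc6a3, were not detected.

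The genes whose pattern over the 8 tumours was most like that of Dbh and Th were named by the root mean square difference of levels centred on each gene's mean, among the 12706 detected genes other than the 9 detected members of the set of 10. For Th, whose own root mean square deviation was 0.86, the nearest was Pcbd1 (difference 0.24), followed by Fxyd6 (0.33), Zfpm2 (0.37), Psd2 (0.39) and Scn3b (0.40). The choice by likeness means that they share its low tumour 6 and high tumour 8. For Dbh, whose own deviation was 1.76, the nearest were A530058N18Rik (0.69), Sytl4 (0.76), A830018L16Rik (0.77), Ncam2 (0.78) and Tfap2b (0.79). These share its low tumour 6 by the same choice, with Sytl4, which encodes a granule-associated synaptotagmin-like protein, at 5.95 there against 9.29 or more elsewhere, and Ncam2, a neural adhesion molecule, at 6.98 against 9.59 or more.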

How the data were processed

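Total RNA of 8 tumours was measured on Affymetrix whole-transcript mouse arrays, 1 per tumour. The authors deposited log2 levels by probe set. The submitters' processing notes name RMA and Partek 6.5 without the role of each. RMA includes background correction and quantile normalization, which can compress differences. For the build, the sources used here give none. Of 41345 probe sets, 23521 had 1 gene symbol, 1814 several and 16010 none, and 22180 genes were read from the probe set with the highest mean. Array medians ran from 5.63 to 5.75, and 13063 to 13606 genes per array were above the background of 1440 receptor probe sets. Arrays carry no counts, and their number limits the precision.

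A limma 3.58.1 fit (R 4.3.3, trend and robust prior) tested the log2 level minus background, adjusted over all genes with the Benjamini-Hochberg method and tested on simulated data. Relations used Python 3.11.15 with scipy 1.17.1. Alternatives were 2 other background levels, the mean of probe sets, array centring, renewed quantile normalization, a filter, a plain limma prior and each tumour left out. The members, lists, pairs and rules were chosen with earlier results of these data known. The ATTA motif and the counts of SD and of tumour 6 were chosen after seeing the data. Named are the 10 genes, the transcription factors of the pairs, up to 3 undetected and the 2 most variable detected genes of each list, and the 5 genes nearest to Dbh and to Th; others were chosen after their values were seen.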

Additional observations from a re-analysis of the deposited data

Results flagged for a closer look

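In 13 of 57 genes checked, which include all those named in the text, the lowest or highest tumour stood apart from the other 7. Its gap to the nearest was more than 0.526 of the whole range, Dixon's 95% critical value for 8 samples. Chance sets about 1 in 20 groups apart, and over all 12715 detected genes the lowest tumour stood apart in 2.93% and the highest in 4.03%. Those shares are not matched to the count of 13. Sult1a1, Slc6a4, Dct and Pmel were not detected over the group, and some genes were named for their values or their likeness to Dbh.

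Tumour 6 was low and apart for Dbh (5.72, next lowest 9.87), Gata3 (6.93, next 9.01), Tfap2b (4.88, next 10.39), A530058N18Rik (4.60, next 7.44), Sytl4 (5.95, next 9.29), A830018L16Rik (5.60, next 8.40), Ncam2 (6.98, next 9.59) and the copper importer Slc31a1 (9.42, next 9.84). A530058N18Rik, Sytl4, A830018L16Rik, Ncam2 and Tfap2b were named for their likeness to Dbh and do not count separately from it. Over all detected genes 1.12% were set apart by a low tumour 6.

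Tumour 8 was high and apart for the noradrenaline transporter Slc6a2 (7.04, next 6.28) and low for Sult1a1 (5.24, next 5.56), which was not detected. Tumour 5 was high for the serotonin transporter Slc6a4 (7.30, next 6.09), and tumour 4 for the pigment cell genes Dct (8.01, next 5.52) and Pmel (6.76, next 5.36).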

How the results depend on the processing

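The 9 detected genes stayed 9 without each tumour in turn and under every setting tried but the other background levels, which gave 7 (99th percentile) and 10 (median). With the background at its 99th percentile, Gch1 was 0.26 and Slc6a2 0.52 below it (-0.26 and -0.52, limma, adjusted p = 0.155 and 0.00182), and with the background at its median Pnmt was 1.59 above it (limma, adjusted p = 2.68e-10). Of 46 other pathway genes, 40 were detected without each tumour in turn, 39 with the mean of probe sets, and 32 and 46 at those backgrounds. The share of all genes detected at those backgrounds is not given here, so the counts there are not set against it. Without single tumours the number of pairs past the threshold ran from 0 to 7, and the 0 came without tumour 6. Leaving out single tumours, r ran from -0.057 to 0.713 for Gata3 with Th, from -0.521 to 0.0362 for glial markers with Th, from -0.348 to 0.0505 for fibroblast markers with Maoa and from -0.702 to 0.357 for muscle markers with Maoa, and each sign turned without tumour 6; the cause was not tested. Array centring and renewed quantile normalization kept each relation on its side of the threshold, and kept 6 genes lowest in tumour 6 and 5 at least 1 log2 unit lower there. No paired analysis was possible because the labels give 1 group. Depth cannot be read from arrays, and Gch1, Slc6a2 and Pnmt are limited by their signal near background.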

Other observations

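Neighbouring monoamine and pigment pathways share enzymes or substrates with catecholamine synthesis. The serotonin synthesis enzymes Tph1 (4.30 ± 0.09, SD, n = 8) and Tph2 (5.35 ± 0.40) were not detected (-1.29 and -0.24 relative to background in limma's fit), although Ddc and the vesicular transporters also serve serotonin. The serotonin transporter Slc6a4 was not detected over the group (5.88 ± 0.69, limma, adjusted p = 0.2). It was nevertheless above background in 5 of 8 tumours and reached 7.30 in tumour 5. Melanin is also made from tyrosine, and none of 5 melanocyte markers was detected over the group (limma). Within tumour 4 the melanin enzyme Dct was at 8.01 and the melanosome gene Pmel at 6.76, while tyrosinase (Tyr) was at 3.91, under the background of that array (5.66).

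Of 7 measured receptors for catecholamines 4 were detected, which is close to the 57.3% of all genes tested. These were Drd4 (7.20 ± 0.35, SD, n = 8), Drd5 (6.41 ± 0.13), Drd2 (6.39 ± 0.44) and Adra2c (5.94 ± 0.43), an inhibitory receptor of sympathetic nerve endings. On average Drd4 lay 1.62 above background, Drd5 0.83, Drd2 0.80 and Adra2c 0.35, so the last 3 lay near it. Adra2c was above background in 6 of 8 tumours. Adra1b, Drd1 and Drd3 were below background at 5.29, 3.87 and 5.37. Drd2 was highest in tumours 8 and 3 (7.06 and 6.97) and Adra2c in tumours 4 and 8 (6.64 and 6.38).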
